A study of Mus musculus with 2 samples.

Results

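The genes described here are 10 isozymes of glycolysis: the hexokinases Hk1 and Hk2, the phosphofructokinases Pfkl, Pfkm and Pfkp, the aldolases Aldoa and Aldoc, the pyruvate kinase Pkm, and the lactate dehydrogenases Ldha and Ldhb. They were chosen by name, and each was found by its gene identifier in the GENCODE M21 annotation of the mouse genome. They make up 10 of the 42462 genes with a symbol among the 69691 features in each table. The tables hold total RNA sequencing of forebrain from healthy B6NCrl mouse embryos at embryonic day 12.5, and the labels name no treatment or altered allele. There is 1 group with 2 biological replicates, each a pool of tissue from many embryos of both sexes, with 120 embryos in replicate 1 and 68 in replicate 2. Each library started from 10 ng of RNA, and the labels give both pools the same donor entry. With 1 group there is no condition to compare, so the questions the data can answer are which isozyme of each family was the more abundant, which of its transcripts carried it, and how closely the pools matched. No p-value is given, and the SD values below measure only the spread between these 2 pools.

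Glycolysis splits glucose into pyruvate in the cytosol, and lactate dehydrogenase interconverts pyruvate and lactate. Most steps are served by several genes whose enzymes differ in regulation, location in the cell and the tissues they are typical of. Dividing neural progenitors are known for a high rate of glycolysis to lactate, and maturing neurons for a shift towards oxidation of pyruvate and towards other isozymes. In bulk tissue, fewer cells of a type and less RNA per cell cannot be told apart, so each level is an average over all cells of the pool.

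Levels are given in TPM, a transcript's part of all RNA molecules counted in a library, which corrects for transcript length and so allows genes to be compared. All 10 genes reached 1 TPM in both pools, as did 34.5% of all named genes. Together they held 0.320% and 0.324% of TPM in replicates 1 and 2, from 125525 and 131521 expected counts. The total was 33711030 expected counts in replicate 1 and 34578499 in replicate 2. Among 21461 nuclear protein-coding genes ranked by mean TPM, Pkm stood at place 33 and Ldha at 77, followed by Ldhb at 354 and Aldoa at 397. Pfkl stood at 1671, Pfkm at 3913, Hk1 at 4757, Pfkp at 5986, Aldoc at 6034 and Hk2 at 7573. Of the neighbours in this order, Pfkp and Aldoc changed places between the pools. The deposited intervals of Ldhb and Aldoa, which cover read assignment and counting within a library, were apart in replicate 1 and overlapped in replicate 2. All other neighbours kept their order in both pools, with intervals apart in each.

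**Figure D1:**
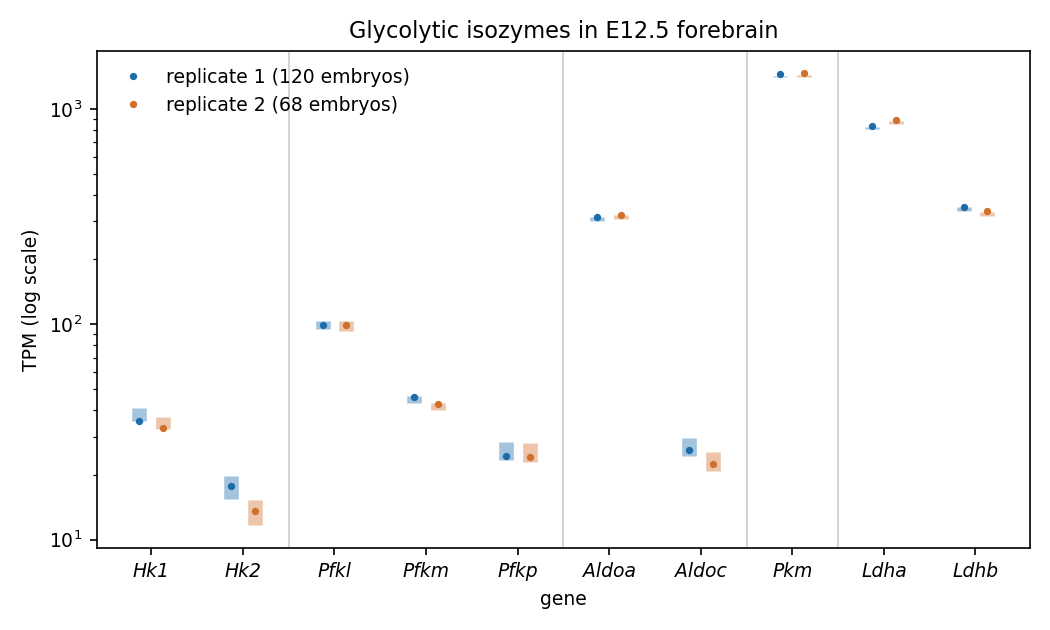
Each point is the TPM (log axis) of 1 gene in 1 pool, blue for replicate 1 and orange for replicate 2, and each shaded box is the deposited TPM interval of that pool; grey lines part the families. Pkm lies at 1452 and 1461 TPM and Hk2 at 17.7 and 13.5 TPM, the top and bottom of the set; a point can lie outside its box because the interval belongs to the posterior mean.

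The genes are given by Ensembl identifier and position on GRCm38. The hexokinase genes are Hk1 (ENSMUSG00000037012, chr10:62268855-62379908, minus strand) and Hk2 (ENSMUSG00000000628, chr6:82725025-82774454, minus strand). The phosphofructokinase genes are Pfkl (ENSMUSG00000020277, chr10:77986947-78010083, minus strand), Pfkm (ENSMUSG00000033065, chr15:98092589-98132451, plus strand) and Pfkp (ENSMUSG00000021196, chr13:6579768-6648777, minus strand). Aldoa (ENSMUSG00000030695, chr7:126795234-126800751, minus strand) and Aldoc (ENSMUSG00000017390, chr11:78322968-78327781, plus strand) encode aldolases, and Pkm (ENSMUSG00000032294, chr9:59656368-59679375, plus strand) pyruvate kinase. The lactate dehydrogenase genes are Ldha (ENSMUSG00000063229, chr7:46841475-46855627, plus strand) and Ldhb (ENSMUSG00000030246, chr6:142490249-142507957, minus strand). Among the genes described, those of 1 family thus lie on different chromosomes, so their reads do not overlap by position.

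Markers of cell types were measured in the same pools. Neural progenitor markers summed to 1563 and 1569 TPM and neuronal markers to 1398 and 1303 TPM, with all 5 members of each list above 1 TPM in both pools. Astrocyte markers summed to 12.3 and 13.0 TPM, mostly from Slc1a2 at 9.88 and 10.7 TPM, with Aldh1l1 at 1.65 and 1.46 TPM and Gfap at 0.02 and 0.08 TPM. Erythroid markers, typical of red cells in the embryos' blood, summed to 5992 and 8108 TPM.

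Hexokinase phosphorylates glucose and traps it in the cell. Hk1, the form common to brain and red cells, measured 35.6 and 33.1 TPM in replicates 1 and 2, or 34.3 ± 1.79 (SD, n = 2). Hk2, the insulin-responsive form of muscle that is also high in many proliferating cells, measured 17.7 and 13.5 TPM in replicates 1 and 2, or 15.6 ± 2.93 (SD, n = 2). Hk1 was the higher in both pools and the deposited intervals were apart in both, from 35.4 to 40.7 TPM against 15.4 to 19.7 TPM in replicate 1 and from 32.5 to 37.2 TPM against 11.7 to 15.3 TPM in replicate 2. The ratio of mean TPM was 2.20. Hk1 therefore made up 68.9 ± 2.93% (SD, n = 2) of the TPM of the pair. Hk3 stayed under 1 TPM at 0.26 and 0.80, and so did Hkdc1 at 0.23 and 0.10.

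Both hexokinases open with a short coding exon that encodes the stretch known to bind mitochondria, and Hk1 has further start exons without it. The coding starts are shown because the Hk1 transcripts differ there and share most of the remaining coding sequence. They were read from the GENCODE M21 transcripts on GRCm38, both genes on the minus strand, in the order Hk1-202 (chr10:62340013-62340075), Hk2-201 (chr6:82773918-82773980), Hk1-205 (chr10:62342501-62342560) and Hk1-201, whose start is split over chr10:62358336-62358362 (exon 1) and chr10:62353058-62353105 (exon 2). In the Hk1-202 and Hk2-201 lines capitals mark bases that differ between them, and in the others capitals mark the start codon.
Hk1-202: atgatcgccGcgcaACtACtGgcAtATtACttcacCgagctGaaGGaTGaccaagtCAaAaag
Hk2-201: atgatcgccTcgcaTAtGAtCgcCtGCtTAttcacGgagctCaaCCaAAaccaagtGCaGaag
Hk1-205: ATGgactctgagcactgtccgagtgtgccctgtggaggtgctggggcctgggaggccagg
Hk1-201, exon 1: ATGggacagaactgccagcgaggacag
Hk1-201, exon 2: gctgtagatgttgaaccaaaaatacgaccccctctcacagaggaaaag
The starts of Hk1-202 and Hk2-201 are 63 bases each and match at 43 positions. Apart from their starts the Hk1 transcripts Hk1-201, Hk1-202 and Hk1-205 share 17 coding exons of 2691 bases, and Hk1-201 has 1 further coding exon of 69 bases, its exon 10, at chr10:62291975-62292043.

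Hk1-202, whose start resembles that of Hk2, carried most of Hk1. It measured 23.5 and 22.3 TPM in replicates 1 and 2, which is 65.9% and 67.3% of the gene's TPM. Hk1-201 carried 26.5% and 21.1%, and Hk1-205 carried 6.38% and 6.37%. The deposited intervals of Hk1-202 (20.1 to 26.1 TPM and 19.4 to 23.9 TPM) and Hk1-201 (4.94 to 11.6 TPM and 4.12 to 9.11 TPM) were apart in both pools. With so much shared sequence only reads in the parts that differ tell these transcripts apart, and the interval of Hk1-205 reached down to 0.177 TPM in replicate 1. Those parts include the downstream ends, annotated at chr10:62268855 for Hk1-202, chr10:62269108 for Hk1-201 and chr10:62269909 for Hk1-205. The shares therefore do not rest on the starts alone.

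The coding transcript held nearly all Hk2 reads but much less of the gene's TPM. Hk2-201 had 1022 and 958 expected counts, or 92.5% and 94.8% of the gene's, and measured 9.37 and 8.43 TPM in replicates 1 and 2, with intervals of 8.53 to 9.67 TPM and 7.66 to 8.72 TPM that overlapped. This is 53.0% and 62.4% of the gene's TPM. The rest was Hk2-202, a transcript of 594 bases annotated without a coding sequence at chr6:82725062-82726309. It took 47.0% of the gene's TPM in replicate 1 and 37.6% in replicate 2, on only 82.9 and 52.9 expected counts, or 7.50% and 5.23% of the gene's counts. All of its bases also lie in exons of another annotated Hk2 transcript. Counting only protein-coding transcripts, Hk1 exceeded Hk2 3.76-fold, and its share of the pair was 79.1% in replicate 1 and 78.8% in replicate 2.

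**Figure D2:**
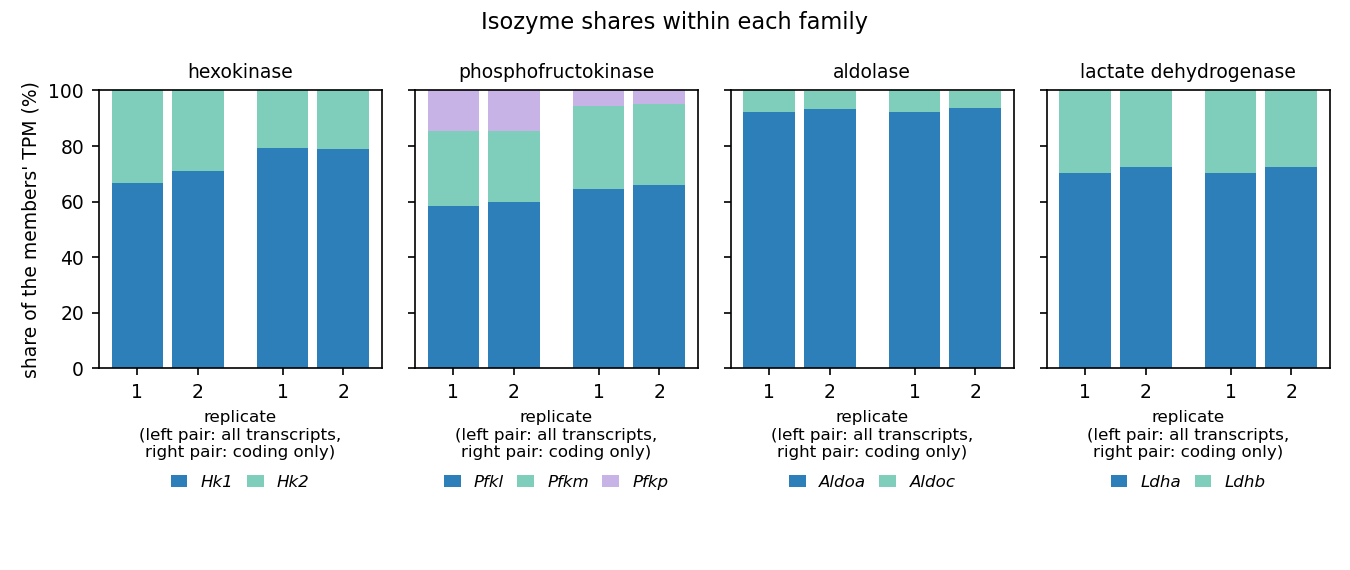
Stacked bars give each isozyme's share (percent) of its family's TPM among the genes described, with replicates 1 and 2 side by side; in each panel the left pair of bars counts all transcripts and the right pair only protein-coding ones. Hk1 takes 66.8% and 71.0% of all hexokinase TPM shown but 79.1% and 78.8% of the coding part, and Pfkp takes 14.4% and 14.6% against 5.43% and 4.90%, while the aldolase and lactate dehydrogenase panels hardly differ.

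Phosphofructokinase catalyses the committed step of glycolysis as a tetramer that can mix subunits. The liver-type subunit gene Pfkl was the most abundant, at 99.3 and 99.2 TPM in replicates 1 and 2. The muscle-type gene Pfkm measured 45.9 and 42.7 TPM, and the platelet-type gene Pfkp 24.5 and 24.3 TPM. The order was the same in both pools with intervals apart in each, and Pfkl exceeded Pfkm 2.24-fold and Pfkp 4.07-fold, while Pfkm exceeded Pfkp 1.82-fold. Pfkl held 59.1 ± 0.832%, Pfkm 26.4 ± 0.937% and Pfkp 14.5 ± 0.105% of the family's TPM (SD, n = 2). Skeletal muscle markers summed to 6.98 and 10.7 TPM beside Pfkm, mostly from Mylpf at 6.08 and 6.97 TPM, with Acta1 at 0.78 and 2.04 TPM. The lowest was the muscle creatine kinase gene Ckm, at 0.08 TPM in replicate 1 and listed at 0 in replicate 2. The part of these markers in the Pfkm level was not tested.

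The 3 phosphofructokinase genes differed in their transcripts. Pfkl was nearly all Pfkl-201, with 98.4% of its TPM in replicate 1 and 94.1% in replicate 2. Pfkm was divided between Pfkm-201 and Pfkm-202, both annotated with coding sequences of 2340 bases. Pfkm-201 measured 26.5 and 28.9 TPM, or 57.7% and 67.7% of the gene, and Pfkm-202 19.4 and 13.8 TPM. Their intervals overlapped in replicate 1 (19.1 to 34.8 TPM against 9.76 to 25.8 TPM) and were just apart in replicate 2 (21.4 to 34.8 TPM against 6.79 to 20.4 TPM), so the order of these transcripts was not separated in both pools. Pfkp stood apart from the other members because most of its level lay in transcripts annotated as retained introns.

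For Pfkp the leading transcript by TPM was Pfkp-210, a retained-intron transcript of 702 bases at chr13:6598295-6602811. It measured 8.98 and 10.6 TPM in replicates 1 and 2, or 36.6% and 43.7% of the gene. The retained-intron transcripts Pfkp-212 (15.7% and 14.0%) and Pfkp-211 (11.9% and 7.54%) added to it. Transcripts without a coding annotation thus took 66.4% and 70.2% of Pfkp TPM in replicates 1 and 2, and 55.5% and 55.7% of its expected counts. The coding transcripts Pfkp-201 (6.04 and 5.13 TPM) and Pfkp-207 (1.85 and 2.09 TPM) carried most of the rest. Pfkp was the single member of the 10 whose leading transcript was not protein-coding, which was the case for 6.48% of protein-coding genes at a mean of 1 TPM or more. Counted by reads instead, the leading Pfkp transcript was Pfkp-212, with 33.7% and 31.6% of the counts, and it too is annotated as a retained intron. Its deposited length is 4663 bases but 8681 in M21, so that class comes from a longer model than the one counted. With coding transcripts alone Pfkp measured 8.25 and 7.22 TPM, and Pfkl exceeded it 12.6-fold and Pfkm 5.73-fold.

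**Figure D3:**
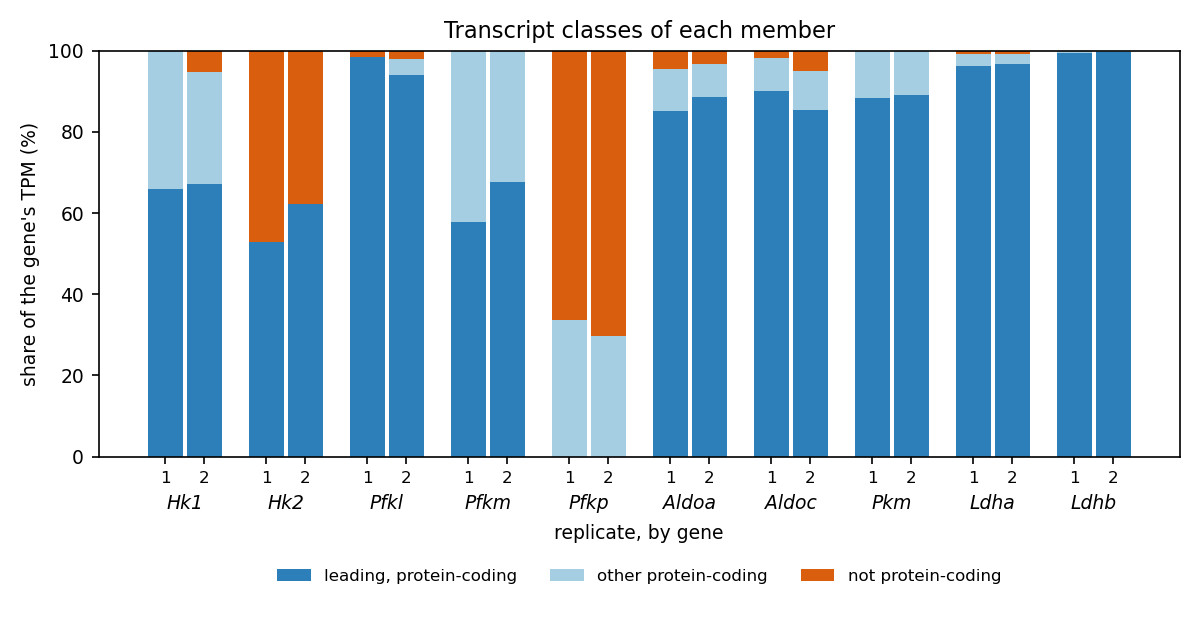
Stacked bars divide each gene's TPM (percent) in replicates 1 and 2 into its leading transcript where that is protein-coding, other protein-coding transcripts, and transcripts without a coding annotation. Transcripts that are not protein-coding take 66.4% and 70.2% of Pfkp and 47.0% and 37.6% of Hk2, and at most 5.25% in the other genes.

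Aldolase cleaves fructose bisphosphate into triose phosphates. The ubiquitous and muscle-type gene Aldoa measured 315 and 323 TPM in replicates 1 and 2, against 26.0 and 22.4 TPM for the brain-type gene Aldoc, which in the adult marks astrocytes and Purkinje cells. Aldoa was 13.2-fold higher and held 92.9 ± 0.806% (SD, n = 2) of the TPM of the pair. Aldoc thus stood at 24.2 ± 2.57 TPM (SD, n = 2) beside the 5 astrocyte markers, of which Slc1a2 and Aldh1l1 passed 1 TPM in both pools and Gfap, Aqp4 and S100b did not. Their part in the Aldoc level was not tested.

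Both aldolase genes start at more than one place. Aldoa-201 starts at the downstream site and carried 85.2% and 88.6% of Aldoa, while Aldoa-203, from an upstream start but with the same coding length of 1092 bases, carried 6.35% and 3.99%. The intervals of Aldoa-203 were wide, from 12.4 to 33.4 TPM and from 4.56 to 23.7 TPM. For Aldoc, Aldoc-202 carried 90.1% and 85.4% and Aldoc-201, from the upstream start, 8.22% and 9.77%.

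Pyruvate kinase makes pyruvate and ATP in the last step of glycolysis. Pkm was the most abundant of the 10 genes, at 1452 and 1461 TPM in replicates 1 and 2, or 1456 ± 6.22 (SD, n = 2). Pklr, the liver and red cell gene, was at 0.17 and 0.07 TPM on 6.09 and 4.03 expected counts, beside the erythroid markers given above. Pkm thus held 99.99% of the family's TPM.

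The Pkm transcripts differ by a pair of mutually exclusive exons, both exon 9 of 11, which are shown because the choice between them sets the enzyme's kinetics. Both exons have 167 bases, and their positions on the plus strand of GRCm38 are chr9:59675568-59675734 for Pkm-201 and chr9:59675029-59675195 for Pkm-202. The downstream exon, of Pkm-201, is known from the PKM2 enzyme of embryonic and proliferating cells, and the upstream exon from the PKM1 enzyme of mature muscle and brain. Capitals mark the bases at which the exons differ.
Pkm-201: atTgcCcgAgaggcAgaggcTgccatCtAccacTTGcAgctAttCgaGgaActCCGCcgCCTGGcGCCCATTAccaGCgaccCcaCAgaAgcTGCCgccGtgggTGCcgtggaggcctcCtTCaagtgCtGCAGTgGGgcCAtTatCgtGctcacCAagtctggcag
Pkm-202: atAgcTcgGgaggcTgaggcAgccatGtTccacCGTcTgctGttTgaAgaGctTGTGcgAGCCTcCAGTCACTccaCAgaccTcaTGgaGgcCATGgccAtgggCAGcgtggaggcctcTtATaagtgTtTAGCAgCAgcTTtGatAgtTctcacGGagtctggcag
The exons are identical at 103 positions and differ at 64, and 372 bases lie between them. The longest run of identical positions is 12 bases.

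The transcript with the PKM2 exon made up most of Pkm in both pools. Pkm-201 measured 1283 and 1303 TPM in replicates 1 and 2, or 88.3% and 89.2% of the gene. Pkm-202 measured 169 and 158 TPM in replicates 1 and 2, or 11.7% and 10.8%. Even this lesser transcript stood above every hexokinase and phosphofructokinase gene in both pools. The Pkm-201 intervals were 1233 to 1259 TPM and 1254 to 1281 TPM, and those of Pkm-202 were 155 to 174 TPM and 144 to 163 TPM. The intervals of each transcript overlapped between the pools. Pkm-202 has a deposited length of 2432 bases but 2041 in M21, so its TPM rests on a longer model than the one that gave its exon positions.

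Genes known to steer this exon choice were all expressed. The proteins of Ptbp1, Hnrnpa1 and Hnrnpa2b1 are known to repress the upstream exon, and that of Srsf3 to promote the downstream one. Ptbp1 measured 183 and 181 TPM, and its neuronal relative Ptbp2 240 and 223 TPM. Hnrnpa1 stood at 1230 TPM in both pools, Hnrnpa2b1 at 1388 and 1262 TPM, and Srsf3 at 970 and 982 TPM. Only 38.6% and 38.9% of Srsf3 TPM was in protein-coding transcripts, or 374 and 382 TPM.

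Lactate dehydrogenase is a tetramer of subunits from Ldha, the form typical of muscle and of glycolytic tissue, and Ldhb, the form typical of heart. Ldha measured 835 and 886 TPM in replicates 1 and 2, and Ldhb 350 and 335 TPM. Ldha was 2.38-fold higher in replicate 1 and 2.65-fold higher in replicate 2, with intervals apart in both. It held 71.5 ± 1.51% (SD, n = 2) of the TPM of the pair. The testis gene Ldhc had 0 counts in replicate 1, where 3 counts would correspond to 0.165 TPM, and 0.07 TPM in replicate 2, and Ldhd, which acts on D-lactate, measured 0.20 and 0.41 TPM. Each gene was carried by a single transcript, Ldha-202 with 96.2% and 96.7% and Ldhb-201 with 99.5% and 99.7%.

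Pyruvate kinase and lactate dehydrogenase are genes with many processed copies in the genome. Annotated pseudogenes matching a member at 80% identity or more over at least 200 bases numbered 16 for Ldha, 8 for Pkm, 5 for Aldoa and 1 for Ldhb. The Ldha copies summed to 3.20 and 2.66 TPM, or 0.383% and 0.300% of Ldha, and those of Pkm to 0.20 and 0.69 TPM. The Ldhb copy Gm5514, 98.0% identical, measured 1.64 and 1.30 TPM. How reads shared with these copies were divided is fixed by the authors' counting, so the levels of these genes carry that uncertainty. The sources used here do not state whether the counting used strand.

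The promoters of the lactate dehydrogenase genes and of the main Aldoa start are shown because these genes were among the highest of the set and differ in a short motif. The motif ACGTG is a form of the core of sites bound by hypoxia-inducible factors and, as part of CACGTG, by Myc proteins. The other form of the hypoxia-inducible factor core, GCGTG, was not counted. The lines give 250 bases before a RefSeq start on GRCm38.p6: Ldha (chr7:46845554-46845803, plus strand), Ldhb (chr6:142507958-142508207, minus strand) and Aldoa (chr7:126799255-126799504, minus strand). Capitals mark the motif on either strand, with CACGTG counted on both.
Ldha: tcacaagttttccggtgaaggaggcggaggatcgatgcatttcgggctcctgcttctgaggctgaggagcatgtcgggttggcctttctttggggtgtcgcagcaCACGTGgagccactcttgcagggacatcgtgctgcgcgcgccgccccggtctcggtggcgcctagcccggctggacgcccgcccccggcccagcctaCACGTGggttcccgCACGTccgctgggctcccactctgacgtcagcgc
Ldhb: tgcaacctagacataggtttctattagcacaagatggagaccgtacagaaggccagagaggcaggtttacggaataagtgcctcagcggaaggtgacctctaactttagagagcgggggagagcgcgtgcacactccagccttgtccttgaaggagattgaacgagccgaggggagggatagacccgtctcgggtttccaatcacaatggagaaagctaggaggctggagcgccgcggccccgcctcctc
Aldoa: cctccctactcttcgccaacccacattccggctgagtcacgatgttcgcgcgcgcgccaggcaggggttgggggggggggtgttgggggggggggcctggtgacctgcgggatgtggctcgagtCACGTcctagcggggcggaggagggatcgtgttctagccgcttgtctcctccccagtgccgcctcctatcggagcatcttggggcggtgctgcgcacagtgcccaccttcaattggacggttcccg
The Ldha window holds 5 matches, the Ldhb window 0 and the Aldoa window 1. The Ldhb line does contain gcgtg, the form that was not counted.

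Of 32851 such windows over all genes, 16.6% hold the motif at least once. The 10 genes have 19 windows, of which 7 hold it, belonging to 5 genes. Among the 7, overlapping windows at the main Aldoa start hold the same match. The motif contains the pair CG, of which the median window over all genes has 6. The windows shown have 25 for Ldha, 14 for Ldhb and 21 for Aldoa. The Hk2 window has 25 and the one before Pfkm-202 has 2. The share of 16.6% is not matched for this. Hk2 has 2 matches, the window before the start of Pfkm-202 also has 2, and of the 2 overlapping windows near the start of Pfkm-201 the upstream one has 1 and the other 0. Pkm has a match only before a RefSeq start with no transcript of the tables within 150 bases. These matches describe the letters of the windows, and binding was not measured. The factors themselves were expressed: Hif1a measured 101 and 102 TPM, Mycn 106 and 117 TPM, and Myc 21.5 and 20.6 TPM.

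Across the whole pathway the families of the 10 genes spanned from the lowest step to near the highest. The summed TPM of hexokinase genes was 53.3 ± 4.04 (SD, n = 2), the lowest of 11 enzyme steps, and that of glyceraldehyde phosphate dehydrogenase was 1875 ± 43.5 (SD, n = 2), the highest and 35.2-fold above it. That top place rests on transcripts without a coding annotation, since only 33.1% and 34.4% of Gapdh TPM was in protein-coding transcripts. Counting those alone, this step stood at 633 TPM, below pyruvate kinase, lactate dehydrogenase and enolase, and pyruvate kinase was the highest, 32.0-fold above hexokinase at 45.6 TPM. With all transcripts counted, pyruvate kinase followed at 1456 TPM, lactate dehydrogenase at 1203 TPM and enolase at 1105 TPM. Phosphofructokinase stood at 168 TPM, below glucose phosphate isomerase at 190 TPM, and aldolase at 343 TPM. Hexokinase and phosphofructokinase, regulated steps in the upper part of the pathway, were the 2 lowest enzyme steps in both pools, with all transcripts or coding ones alone.

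Of the 11 enzyme steps, 2 were listed with a single gene. Of the other 9, 6 had 1 gene holding over 90% of TPM when Bpgm was left out, and 5 when it was counted. Bpgm is a bisphosphoglycerate mutase with some activity in the phosphoglycerate mutase step, at 51.6 and 56.0 TPM, and with it Pgam1 held 90.1% and 89.5% of that step. The leading gene held a smaller share in hexokinase (64.5%), phosphofructokinase (59.1%) and lactate dehydrogenase (71.5%). In enolase, Eno1 measured 1064 and 1113 TPM against 8.75 and 8.63 TPM for the neuronal gene Eno2 and 7.88 and 7.52 TPM for the muscle gene Eno3. Glucose entry was led by Slc2a1 at 94.5 and 96.1 TPM, above the neuronal transporter gene Slc2a3 at 14.5 and 19.9 TPM. Gapdh (1906 and 1844 TPM), Tpi1 (459 and 488 TPM), Pgk1 (291 TPM in both pools) and Pgam1 (488 and 503 TPM) led their steps. Of the 47 other genes listed for the pathway and its regulation, 38 reached 1 TPM in both pools, as did 34.5% of named genes. The deposited intervals were apart between the pools in 8 of the 47, with 5 higher in replicate 2 and 3 higher in replicate 1. That is 17.0%, near the share over all named genes, which was 13.9% at a mean of 1 TPM or more and 17.5% at 10 TPM or more.

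**Figure D4:**
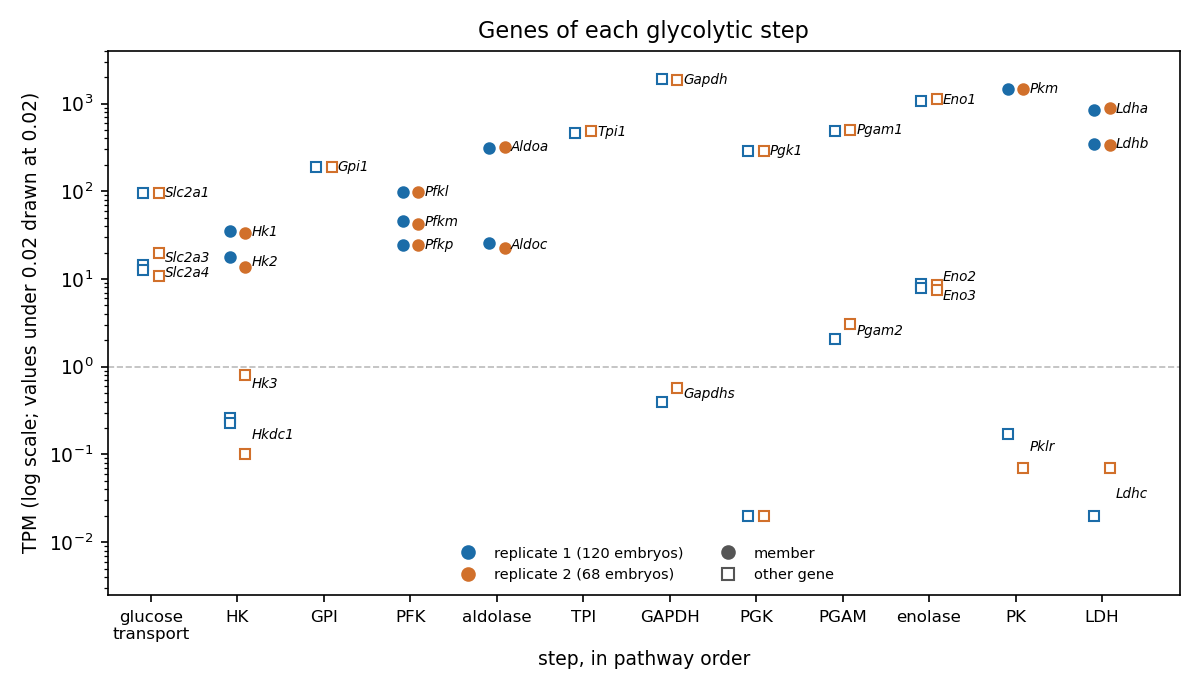
TPM (log axis) of the reported genes of glucose entry and of each glycolytic step in pathway order, blue for replicate 1 and orange for replicate 2, with filled circles for the 10 isozymes and open squares for other genes; the dashed line is 1 TPM, and values under 0.02 are drawn at 0.02. Hexokinase has its highest gene at 35.6 and 33.1 TPM, the lowest such value of the enzyme steps, and Pkm at 1452 and 1461 TPM stands below Gapdh at 1906 and 1844 TPM, an order that turns when only coding transcripts count (Gapdh at 631 and 635 TPM); Bpgm and Ldhd are not drawn.

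By the median log2 ratio, the pools differed for these genes about as much as for named genes at 10 TPM or more. The median absolute log2 ratio of replicate 2 over replicate 1, on TPM + 1, was 0.08 over the 10 genes and 0.10 over 15192 named genes at a mean of 1 TPM or more. Over the 9337 genes at 10 TPM or more, the range in which all 10 lie, it was 0.08. The deposited intervals were apart between the pools in 3 of the 10, against 13.9% of these 15192 genes and 17.5% of those at 10 TPM or more. Ldha was the 1 gene higher in replicate 2, with intervals of 802 to 824 TPM and 852 to 874 TPM (background 6.94%). Hk2 and Ldhb were the 2 higher in replicate 1 (background 7.01%). For Ldhb the intervals were 334 to 348 TPM and 319 to 333 TPM. For Hk2 most of the difference lay in the short transcript Hk2-202, at 8.31 and 5.09 TPM in replicates 1 and 2. Taken singly, neither Hk2 transcript had intervals apart: those of Hk2-202 were 6.09 to 10.3 TPM and 3.30 to 6.84 TPM, and those of Hk2-201 overlapped as given above. When TPM was rescaled to the genes with a symbol, the intervals of Pfkm were apart as well, higher in replicate 1, which made 4 of 10 against 14.4% of genes.

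The shares of lactate dehydrogenase and aldolase differed slightly between the pools. Ldha took 70.4% of TPM in replicate 1 and 72.6% in replicate 2, and Aldoa 92.4% and 93.5%. By expected counts Ldha held 74.3% (95% exact binomial interval 73.8 to 74.8%) and 76.3% (75.8 to 76.7%), and these intervals, which cover counting error only, did not overlap. For Aldoa the same held, with 90.9% (90.3 to 91.4%) and 92.3% (91.7 to 92.8%). The deposited TPM intervals of Aldoa, and those of Aldoc, nevertheless overlapped between the pools. The intervals of the Hk1, Pfkl, Pfkm and Pfkp shares overlapped. Other markers moved between the same pools. Erythroid markers were higher in replicate 2 with intervals apart in 4 of 5, and mesenchymal markers in 5 of 5. The mesenchymal sums were 576 and 685 TPM. Neuronal markers were lower in replicate 2 with intervals apart in 3 of 5, while Stmn2 and Rbfox3 were higher with intervals overlapping. Skeletal muscle markers were higher in replicate 2 with intervals apart in 2 of 5, both at 2.04 TPM or less. Over all named genes at a mean of 1 TPM or more, intervals were apart in 6.94% higher in replicate 2 and 7.01% higher in replicate 1. The part of these markers in the differences of Ldha, Ldhb and Hk2 was not tested. The pools also differ in their number of embryos, which cannot be told apart from any other difference between them.

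**Figure D5:**
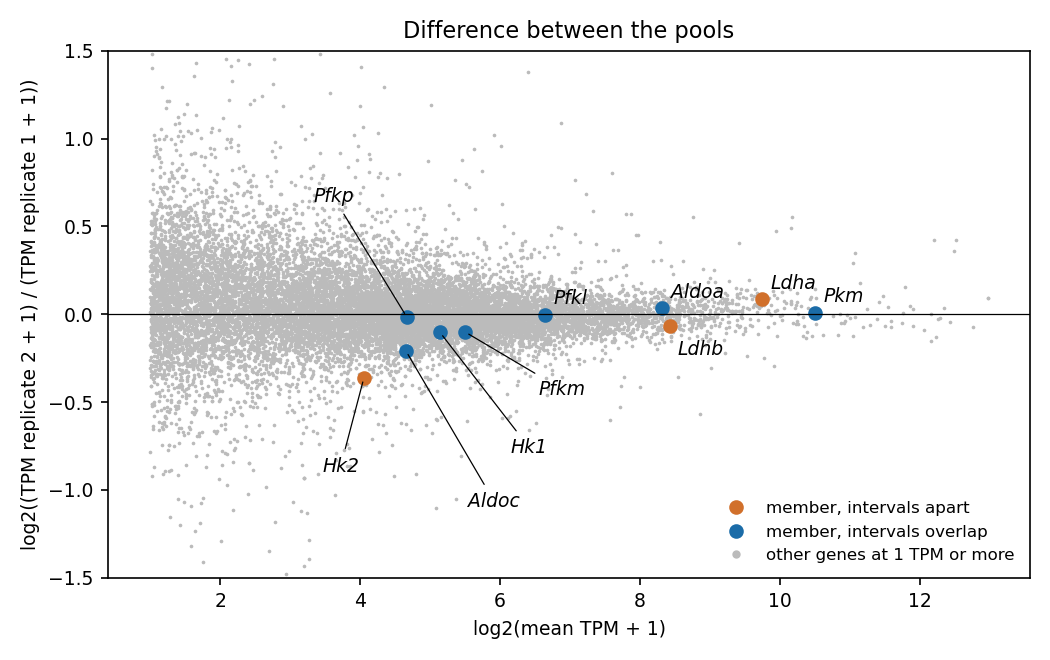
Each point is a gene, with the mean level as log2(TPM + 1) on the x axis and the log2 ratio of replicate 2 over replicate 1 on the y axis; grey points are named genes at a mean of 1 TPM or more, 155 of which lie outside the drawn range. Hk2 at -0.36, Ldhb at -0.07 and Ldha at 0.09 are orange because their deposited intervals are apart, and the other 7 members are blue.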

How the data were processed

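Gene and transcript tables of 2 libraries were used, and a later deposit that replaces them, per the series title, was not used here. Each came from 1 replicate on mm10 with GENCODE M4, per the text deposited beside them. The sources used here name neither aligner nor quantifier. The authors deposited expected counts (estimated reads per feature), TPM relative to all features, FPKM, a posterior mean TPM with its interval, whose level is not given, and the posterior SD of the count as a further value. The deposited percent of each gene's TPM was used for transcript shares. The deposited interval covered the posterior mean of all 10 genes and the TPM of 6 in both pools.

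Symbols, transcript classes and exons came from GENCODE M21 on GRCm38, matched by identifier without version. It is newer than the authors' annotation, so some transcript lengths differ. Promoter windows came from RefSeq (GRCm38.p6), and all 10 genes matched. Shares were taken within each family and pool and then averaged. A pair was called ordered where log2(TPM + 1) differed the same way in both pools by more than either gene differed between pools. Folds are ratios of mean TPM. Exact (Clopper-Pearson) intervals of shares at 95% used expected counts rounded to whole numbers; they and floors of 3 counts cover only counting error, because without molecular identifiers several reads can come from 1 molecule. Depth was 33711030 and 34578499 expected counts, spike-ins included. Spike-ins took 9.19% and 8.25% of TPM.

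The genes, gene lists and rules were chosen with earlier results of these data known. The genes named were the 10 isozymes, listed genes of the pathway and its regulators, cell type markers, pseudogenes matched with BLAST 2.17.0, and transcripts at 5% or more of their gene. Some listed genes are not reported here. Alternatives were other units, family definitions, pseudocounts, scalings, filters, pseudogenes added, and each pool left out. Procedures were tested on simulated data. Scripts used pandas 2.3.3, numpy 2.4.6, scipy 1.17.1 and matplotlib 3.10.9 under Python 3.11.15.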

Additional observations from a re-analysis of the deposited data

How the results depend on the processing

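Step sums apart, of 94 alternative values 77 stayed within the spread of the pools or within 1.5 times a count and 17 moved. Of those that moved, 8 were shares of a family and 9 shares of a leading transcript. Many of the 77 could not have moved, so this number does not measure robustness. With 2 pools, a share from 1 pool alone always lies within the SD. Shares by FPKM equal those by TPM apart from rounding. Pkm is the only gene described in its family, so its share stays at 100% unless further isozymes are counted. The genes described all lie above the filter on low values, so lifting it could not change their number with intervals apart. No family changed its leading gene under the settings tried, but by expected counts Pfkp-210 held 11.7% and lost the lead of Pfkp to Pfkp-212. By expected counts, which take no account of transcript length, the leading share was 71.9% for Hk1, 66.9% for Pfkl, 91.6% for Aldoa and 75.3% for Ldha. With all listed isozymes as the family, Hk1 held 64.5% and Pkm 99.99%. With protein-coding transcripts alone, chosen after seeing the data, Hk1 held 79.0% and Pfkl 65.2%. These 3 settings differ by construction: no length correction, more genes in the family, or fewer transcripts counted. By posterior mean TPM, Hk1-202 held 61.2% of Hk1, Aldoc-202 79.8% of Aldoc and Ldhb-201 99.4% of Ldhb, and the cause was not tested. The step sums with coding transcripts and with Bpgm, given with the steps, were added after seeing the data. With 1 pool left out, the shares ranged from 66.8 to 71.0% for Hk1, 58.5 to 59.7% for Pfkl, 92.4 to 93.5% for Aldoa and 70.4 to 72.6% for Ldha, and stayed at 100% for Pkm. Measures between the pools have no value with a pool left out. The 6 ordered pairs stayed ordered under every unit and pseudocount tried. The level of the deposited intervals is unknown and 2 pools give a rough SD. No paired analysis was possible because there is only 1 group.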

Other observations

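The genes that act around these isozymes were also expressed. Of the enzymes that set fructose 2,6-bisphosphate, the activator of phosphofructokinase, all 4 Pfkfb genes passed 1 TPM in both pools. Of all named genes 34.5% did so. Pfkfb3, the form with the highest kinase activity, led at 16.9 and 16.0 TPM in replicates 1 and 2, followed by Pfkfb2 at 11.3 and 11.8 TPM, Pfkfb4 at 10.4 and 9.39 TPM and Pfkfb1 at 3.32 and 4.67 TPM. The deposited intervals of Pfkfb2 and Pfkfb4 overlapped in replicate 1. With coding transcripts alone Pfkfb3 still led, but Pfkfb2 at 7.15 and 5.66 TPM stood below Pfkfb4 at 10.4 and 9.39 TPM. Tigar, which opposes the kinase activity of the Pfkfb enzymes, measured 6.64 and 5.37 TPM, and its deposited intervals were apart with replicate 1 the higher.

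For the fate of pyruvate and lactate, 11 of 12 listed genes passed 1 TPM in both pools, as did 34.5% of all named genes. The lactate transporter genes Slc16a3 (29.8 and 28.1 TPM), typical of glycolytic cells that export lactate, and Slc16a1 (24.5 and 26.5 TPM) stood far above the neuronal gene Slc16a7 (1.37 and 2.15 TPM). The mitochondrial pyruvate carrier genes Mpc1 and Mpc2 measured 102 ± 0.856 and 106 ± 0.877 TPM (SD, n = 2). The pyruvate dehydrogenase genes Pdhb, Pdha1 and Dlat measured 151 ± 0.813, 78.3 ± 1.88 and 37.6 ± 2.89 TPM (SD, n = 2). Among the kinases that switch off this complex, Pdk3 led at 40.0 and 44.9 TPM, above Pdk1 at 21.8 and 24.8 TPM and Pdk2 at 14.2 and 16.0 TPM, while Pdk4 stood at 1.76 and 0.85 TPM in replicates 1 and 2. With coding transcripts alone Pdk3 still led, but Pdk1 at 12.4 and 13.1 TPM stood below Pdk2 at 13.6 and 15.2 TPM.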
